A study of Mus musculus with 9 samples.

Results

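The comparison described here is that of macrophages given lipopolysaccharide (LPS) for 4 h with macrophages left untreated. It takes 6 of the 9 libraries of the study, 3 per group, and 12196 of the 12204 listed genes, those with a log2 CPM (log2 of counts scaled to the size of the library, the unit of the deposited table) of at least 0 in 3 or more libraries. The cells were macrophages grown from bone marrow of C57/Bl6J mice for 6 days with 20% conditioned supernatant of L929 fibroblasts, which supplies macrophage colony-stimulating factor. One group received nothing further. The other received 10 ng/ml LPS. In the remaining 3 libraries the same LPS treatment followed 1 h with 50 µM BMS303141, an inhibitor of ATP-citrate lyase, and those entered the model only to share its estimate of the spread. The labels name no genetic change in any group. The labels do not say whether replicates were separate mice or cultures, so p-values here measure how far these libraries scatter, and that scatter may be technical.

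LPS, a component of the outer membrane of Gram-negative bacteria, is bound by CD14 and by Toll-like receptor 4 with MD-2 at the macrophage surface. The receptor signals through the adaptors MyD88 and TRIF to the transcription factors NF-kB, AP-1 and IRF3. Within hours the cell changes its surface receptors, its actin cytoskeleton, its lysosomes and its metabolism besides the cytokines and interferon-stimulated genes for which the response is best known, and those other genes are the subject below.

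The table was deposited after quantile normalisation, and its value steps gave approximate depths of 3.22 to 5.05 M (mega) reads for the untreated and 1.84 to 3.19 M for the LPS libraries. The median gene thus rested on roughly 26.8 reads in the shallowest library, LPS replicate 1, and on 72.7 in the deepest, untreated replicate 1. In a principal component analysis of the 6 libraries the first component (77.2% of variance) separated the groups. The second (10.4%) placed LPS replicate 1 at -51.2 and LPS replicates 2 and 3 at 29.5 and 17.1. All 10 macrophage markers were measured, with a summed level of 8406 to 9098 CPM untreated and 4200 to 5089 CPM with LPS; 8 fell, Cd14 rose, and Adgre1, which encodes F4/80, was not called (0.07, SE 0.12, limma adjusted p = 0.692). Few markers of other cells passed the filter. None of the 8 mast cell, 8 dendritic cell or 6 B cell markers did. Neutrophil markers (3 of 10 tested) summed to 11.4 to 34.2 CPM untreated and 38.1 to 66.7 CPM with LPS, stromal markers (5 of 8) to 7.68 to 17.8 and 17.9 to 29.3 CPM, and the single megakaryocyte marker Pf4 (1 of 8), which macrophages can also express, lay at 5.40 to 8.77 and 26.1 to 45.8 CPM. T and NK cell markers (2 of 8) summed to 2.29 to 3.07 and 2.78 to 8.67 CPM, and Kdr alone of 6 endothelial markers lay at 3.80 to 5.17 and 2.78 to 4.19 CPM. Their part in the results was not tested. In RNA of a whole culture, fewer cells of a type and less RNA per cell cannot be told apart.

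LPS changed 5730 of the 12196 genes at a limma adjusted p under 0.05, which is 47%. Of the tested genes 21.5% were called higher and 25.4% lower, and 12.8% were called higher and 14.3% lower by at least 2-fold. At 52.6% of the genes the 3 LPS values did not overlap the 3 untreated values. More genes fell than rose, but with libraries centred on ribosomal protein genes 2613 were higher and 2370 lower. The mean of those genes was lowest in LPS replicate 1, at 6.05 log2 CPM. It was 6.44 and 6.35 in LPS replicates 2 and 3 and 6.24 to 6.48 untreated, so the shift from this centring leans on 1 library. By fitted values, changes of at least 8-fold were rises in 385 and falls in 190 genes, those of at least 32-fold in 124 and 16, and the 20 changes of at least 256-fold were all rises. In the quartile of genes with the lowest untreated levels (-2.65 to 2.17 log2 CPM) 27.3% were higher and 7.38% lower, while in the highest quartile 17.0% were higher and 44.2% lower. The untreated values enter both the level and the difference. A gene with all untreated values below 0 passed the filter only through other libraries, and one at the lowest value cannot fall. Part of this relation thus follows from the measure and the filter. The median SE was 0.47 (log2) in the lowest and 0.14 in the highest quartile, so a change of a given size was called less readily among genes of low level. Genes that rose at least 2-fold took 3.06% to 3.13% of the listed CPM in untreated libraries and 16.1% to 18.2% with LPS, and genes that fell at least 2-fold went from 14.7% to 15.4% down to 4.95% to 5.65%. Gm42418 alone took 25.7% in each library. That share is equal because quantile normalisation hands the most abundant gene the same value in every library. Genes that fell at least 2-fold had a median length of 30.9 kb from start to end, against 24.4 kb for all tested genes and 24.95 kb for genes that rose at least 2-fold, with medians of 10, 9 and 8 exons and no test made.

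**Figure D1:**
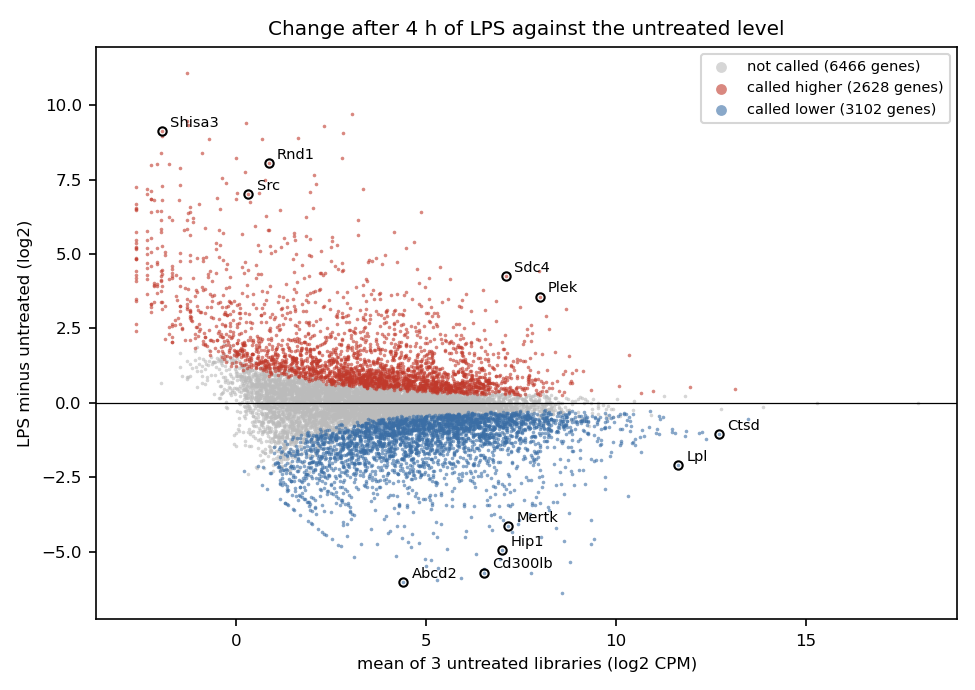
Difference between LPS and untreated libraries (y axis, log2) against the mean of the 3 untreated libraries (x axis, log2 CPM) for 12196 genes, a point per gene, coloured by call (2628 higher, 3102 lower). Rises reach above 8 among genes of low untreated level, such as Shisa3, while abundant genes such as Ctsd and Lpl lie below 0.

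The 12 largest rises outside cytokines, interferon-stimulated genes and the best known markers included Shisa3 (ENSMUSG00000050010, chromosome 5, 67607882 to 67623552, plus strand in GRCm38), whose family holds Frizzled and fibroblast growth factor receptors back in the endoplasmic reticulum. Shisa3 lay at -1.97, -1.58 and -2.33 log2 CPM in untreated replicates 1 to 3 and at 6.96, 7.22 and 7.38 with LPS. It rose by 9.15 (SE 0.24, limma adjusted p = 6.1e-12), from values at or next to the lowest of each library, so the size of the rise is imprecise. Src (ENSMUSG00000027646, chromosome 2, 157418444 to 157471862, plus strand), the founding non-receptor tyrosine kinase, was at 0.67, -0.04 and 0.34 log2 CPM untreated and at 7.39, 7.39 and 7.25 with LPS. Its rise of 7.02 (SE 0.18, limma adjusted p = 4.91e-12) is 129.9-fold, and the groups lie far apart. Rnd1 (ENSMUSG00000054855, chromosome 15, 98663421 to 98677461, minus strand), a small GTPase that loosens actin stress fibres, went from 0.85, 1.37 and 0.34 to 8.09, 9.40 and 9.24 log2 CPM, a rise of 8.05 (SE 0.31), with LPS replicate 1 lowest of its group.

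Marco, a scavenger receptor that binds bacteria, rose by 8.04 (SE 0.38) and Adora2a, an adenosine receptor that raises cyclic AMP, by 7.76 (SE 0.23). Both amino acid transporters among the 12 largest rises belong to the same family. Slc7a11 (ENSMUSG00000027737, chromosome 3, 49892526 to 50443614, minus strand), which exchanges glutamate for cystine, rose from 2.68, 2.05 and 1.40 to 9.34, 9.82 and 9.94 log2 CPM, by 7.65 (SE 0.25). Slc7a2, which carries arginine and lysine, rose by 7.36 (SE 0.51; 6.48 without untreated replicate 3). The others were the microRNA host Mir155hg, U90926, whose function is little known, Bcl2a1d, which protects from apoptosis (7.06, SE 0.51; 7.76 without LPS replicate 1), Cdc42ep2, an effector of the GTPase Cdc42 (7.05, SE 0.30), and Lad1, a basement membrane protein. Lad1 was at the lowest value of every untreated library and at 4.78, 4.35 and 4.66 log2 CPM with LPS, so no fold is given. Reads of Bcl2a1d may be shared with the near-identical genes Bcl2a1a and Bcl2a1b.

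The 12 largest falls are those of the naming rule described below, which passes over some genes, such as Lpar6 with a fall of 5.74. Among these 12, Hip1 (ENSMUSG00000039959, chromosome 5, 135406531 to 135545120, minus strand), a clathrin and actin binding adaptor of endocytosis, lay at 7.11, 7.05 and 6.86 log2 CPM untreated and at 2.20, 2.30 and 1.69 with LPS. It fell by 4.94 (SE 0.23, limma adjusted p = 1.05e-09), a 30.8-fold loss. Sgsh (ENSMUSG00000005043, chromosome 11, 119343425 to 119355536, minus strand), a lysosomal enzyme that degrades heparan sulfate, fell from 6.59, 6.15 and 6.21 to 0.77, 1.09 and 1.82 log2 CPM, by 5.09 (SE 0.29). In both genes every LPS library is more than 4 log2 units below every untreated one. Cd300lb, a receptor for lipids on myeloid cells, fell by 5.71 (SE 0.31), Cytip, which regulates adhesion through cytohesin, by 5.96 (SE 0.37), and Tmem37, related to the gamma subunits of calcium channels, by 5.88 (SE 0.41). Gcnt1, which starts the branched core of O-glycans, fell by 5.56 (SE 0.44) and Rasa3, which switches off Ras and Rap1, by 4.92 (SE 0.36).

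In the other 5 of the 12 largest falls the size moved most when a library was left out, with the call kept each time, and LPS values lie near the lowest of their libraries. Abcd2, a transporter of very long fatty acids into peroxisomes, fell by 6.03 (SE 0.74; by 6.94 without LPS replicate 1). Nlrp1b, an inflammasome sensor, fell by 5.48 (SE 0.77; by 6.59 without LPS replicate 1 and by 4.55 without LPS replicate 2). Fblim1, a filamin-binding protein of cell junctions, fell by 5.29 (SE 0.66; by 5.96 without LPS replicate 1). Ppfia4, a liprin, fell by 5.25 (SE 0.73; by 5.98 without LPS replicate 1 and by 4.23 without LPS replicate 2), and Cdca7l, a nuclear partner of Myc, by 5.14 (SE 0.88; by 5.99 without LPS replicate 1 and by 4.22 without LPS replicate 3).

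**Figure D2:**
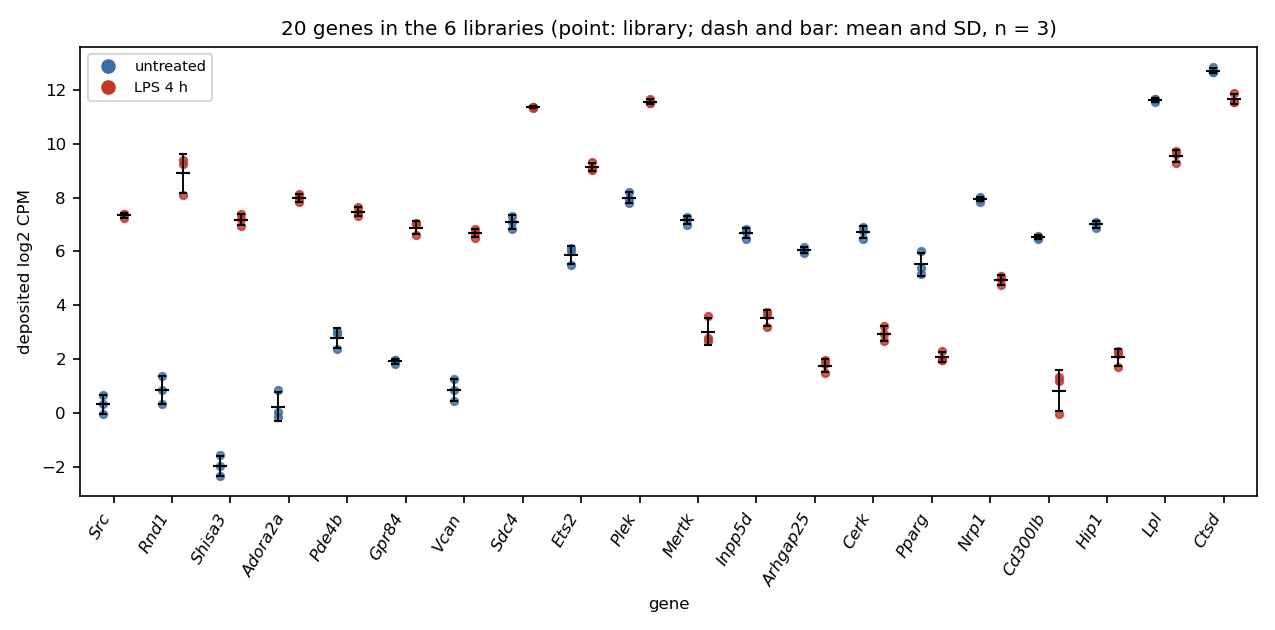
Deposited log2 CPM (y axis) of 20 genes (x axis) in the 3 untreated (blue) and 3 LPS (red) libraries, a point per library, with the mean and SD of each group (n = 3). The groups do not overlap in any of the 20 genes; Shisa3 starts near -2 and Ctsd, the most abundant shown, falls from 12.66 to 12.84 down to 11.56 to 11.89.

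Promoter sequences were read for genes whose RefSeq start is known, as the 250 bases before the start (build GRCm38.p6), for 7969 of the 9934 tested protein-coding genes. Motifs were searched on both strands: the kappa B core GGNNTTTCC bound by NF-kB, the AP-1 site TGANTCA, the cyclic AMP response element TGACGTCA, the E-box CACGTG, the CCAAT box and the interferon-stimulated response element (ISRE). Matches of different motifs may overlap. The kappa B core was present in 5.22% of all 7969 windows, in 7.94% of genes at least 2-fold higher, in 12.1% of those at least 8-fold higher (n = 256) and in 4.9% of those at least 2-fold lower. The AP-1 site was in 4.03%, 6.89%, 11.7% and 4.04% of the same groups, and the ISRE in 2.87%, 6.89%, 8.98% and 2.56%. The cyclic AMP response element, present in 2.94% of all windows, was in 1.17% of genes at least 8-fold higher and in 1.71% of those at least 2-fold lower. E-boxes (8.91% of all, 7.81% of genes at least 8-fold higher) and CCAAT boxes (36.7% and 30.9%) were no more frequent there. The groups hold all genes with a window, cytokines and interferon-stimulated genes included. Their base composition differs, with a median of 55.4% G and C in genes at least 8-fold higher against 60% in all windows. These shares describe the letters in the windows and carry no test, and the part of base composition in them was not tested.

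Among the genes named by the size of their change, 56 had a window whose RefSeq start lies within 50 bases of the GENCODE start, and 6 of these windows hold a kappa B core. They are printed because they show the motif before genes that rose and before genes that fell. Each is written 5′ to 3′ on the gene's own strand with the core, on either strand, in capitals, and ends at the base before the start. Shisa3, Marco and Slfn2 rose, while C3ar1, Cd300lb and Hip1 fell.
Shisa3, chr5:67607633-67607882, plus strand: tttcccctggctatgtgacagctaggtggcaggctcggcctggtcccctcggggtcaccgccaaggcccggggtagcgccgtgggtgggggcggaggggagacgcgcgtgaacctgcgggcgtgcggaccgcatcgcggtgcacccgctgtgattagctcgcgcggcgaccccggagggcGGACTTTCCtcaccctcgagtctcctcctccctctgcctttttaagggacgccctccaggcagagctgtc
Marco, chr1:120505025-120505274, minus strand: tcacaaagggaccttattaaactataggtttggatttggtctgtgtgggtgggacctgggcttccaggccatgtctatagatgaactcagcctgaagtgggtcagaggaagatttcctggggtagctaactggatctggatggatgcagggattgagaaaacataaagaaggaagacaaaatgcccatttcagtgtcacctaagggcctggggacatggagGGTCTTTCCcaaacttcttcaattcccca
Slfn2, chr11:83064862-83065111, plus strand: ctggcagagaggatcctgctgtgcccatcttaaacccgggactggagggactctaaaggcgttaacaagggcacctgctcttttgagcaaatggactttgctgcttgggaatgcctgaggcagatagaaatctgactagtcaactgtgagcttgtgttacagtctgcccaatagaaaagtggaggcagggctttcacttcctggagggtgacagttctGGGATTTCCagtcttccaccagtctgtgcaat
C3ar1, chr6:122856158-122856407, minus strand: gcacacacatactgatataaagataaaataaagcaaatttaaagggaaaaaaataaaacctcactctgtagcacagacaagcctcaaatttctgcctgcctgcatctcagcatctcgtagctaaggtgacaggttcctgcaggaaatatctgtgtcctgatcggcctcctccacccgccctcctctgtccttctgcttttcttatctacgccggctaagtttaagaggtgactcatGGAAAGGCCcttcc
Cd300lb, chr11:114934372-114934621, minus strand: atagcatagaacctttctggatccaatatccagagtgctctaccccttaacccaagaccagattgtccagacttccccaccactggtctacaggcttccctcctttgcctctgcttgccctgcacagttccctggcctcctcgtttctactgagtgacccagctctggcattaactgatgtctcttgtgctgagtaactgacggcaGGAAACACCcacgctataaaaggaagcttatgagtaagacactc
Hip1, chr5:135545123-135545372, minus strand: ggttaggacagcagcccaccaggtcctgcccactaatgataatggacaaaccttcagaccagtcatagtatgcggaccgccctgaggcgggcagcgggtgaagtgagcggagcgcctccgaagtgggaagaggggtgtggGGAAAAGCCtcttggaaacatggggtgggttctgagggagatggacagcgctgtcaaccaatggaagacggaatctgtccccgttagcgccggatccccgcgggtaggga
The core begins 70 bases before the start in Shisa3, 29 in Marco, 32 in Slfn2, 14 in C3ar1, 44 in Cd300lb and 110 in Hip1. A match thus stands within 110 bases of the start in genes of both directions, though its letters differ and it reads GGNNTTTCC on the gene's own strand in the 3 that rose and on the opposite strand in the 3 that fell. This split rests on these few windows, and whether strand goes with direction was not tested. Slfn2, a regulator of quiescence in myeloid and T cells, rose by 2.93 (SE 0.09) from 8.26, 8.18 and 8.01 to 11.09, 11.09 and 11.05 log2 CPM. C3ar1, the receptor for the complement fragment C3a, fell by 3.12 (SE 0.11) from 10.14, 10.35 and 10.46 to 7.16, 7.23 and 7.19 log2 CPM.

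The printed windows also differ in CpG dinucleotides, with 25 in Shisa3, 14 in Hip1, 5 in C3ar1, 3 in Cd300lb, 2 in Slfn2 and none in Marco. Across all windows the median was 17 CpG, against 14 for genes at least 2-fold higher, 7 for those at least 8-fold higher, 16 for those at least 2-fold lower and 14 for those at least 8-fold lower. Windows with at most 5 CpG made up 11.3% of all, 42.2% of genes at least 8-fold higher and 24.5% of genes at least 8-fold lower. Of the 362 genes with 0 to 2 CpG, 34.5% rose at least 2-fold and 17.7% fell at least 2-fold. Of the 1650 genes with 16 to 20 CpG, 7.45% rose and 15.8% fell by that much, and of the 2684 genes with more CpG 11% rose and 14.8% fell. The untreated level moved with the CpG count, from a median of 3.47 log2 CPM at 0 to 2 CpG to 4.57 above 20 CpG, and its part in these shares was not tested.

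**Figure D3:**
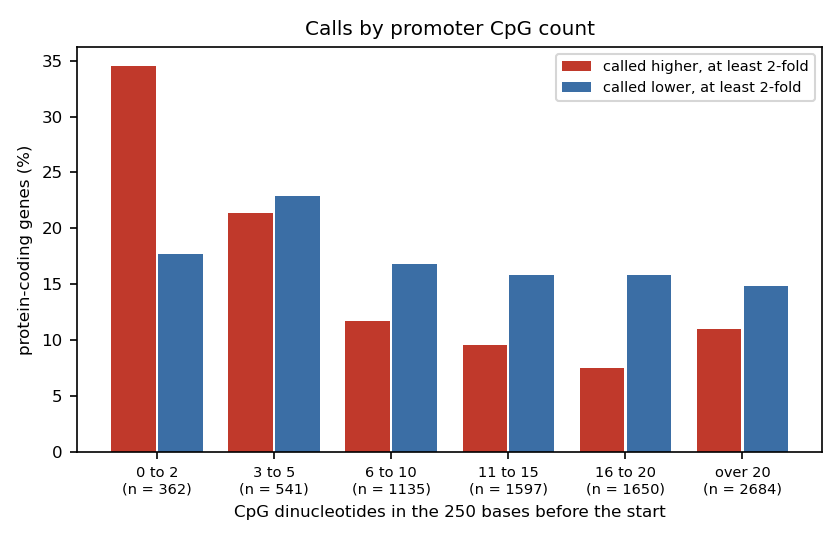
Share of protein-coding genes called higher (red) or lower (blue) by at least 2-fold (y axis, %) by the number of CpG dinucleotides in the 250 bases before the start (x axis, genes per bin below). The share higher falls from 34.5% at 0 to 2 CpG to 7.45% at 16 to 20 CpG and is 11% above 20 CpG, and the share lower lies between 14.8% and 22.9% in all bins.

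For the rest of the response, 36 lists of genes by pathway or protein family were counted, 1047 genes in all, against the 21.5% of all tested genes called higher and the 25.4% called lower. A rule names the largest rise and the largest fall of each list among calls without overlap between groups and with a group mean at or above the median gene. Members outside these limits can have larger changes than those named. Further members were named after their values were seen. The median over all tested genes was -0.06. Among tested protein-coding genes 21.3% were called higher and 29.1% lower, with a median of -0.14. Shares also moved with the untreated level, as given above, with more falls among abundant genes. The lists were not matched for level, and its part in their counts was not tested. Among the genes named below with a rise, Met, Cd200, Pilra, F10 and Nr4a3 had 1 untreated library at its lowest value and Arg2, Cfb, Plat and Siglece had 2, so the size of these rises is imprecise. The same holds for the falls of Gpr183, Kcnk13, Thbd and Serpinb9, each with 1 LPS library at its lowest value.

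**Figure D4:**
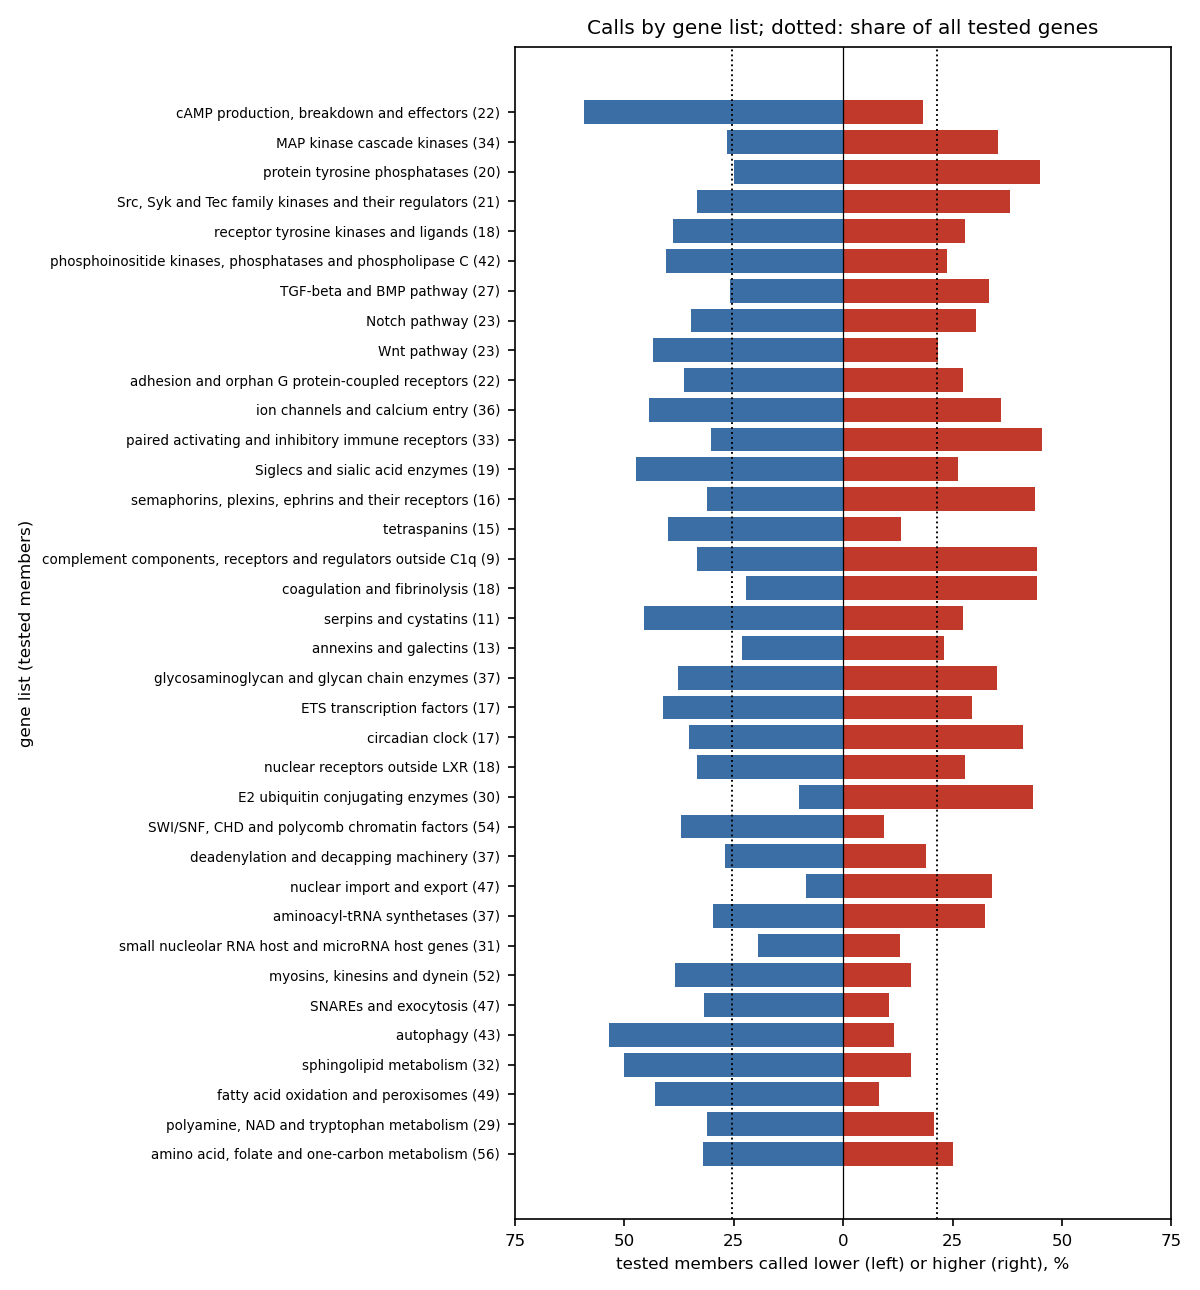
Tested members of each of 36 gene lists called lower (blue, to the left) or higher (red, to the right) with LPS (x axis, % of the tested members, whose number is in brackets on the y axis). Dotted lines mark all tested genes (25.4% lower, 21.5% higher); the cyclic AMP and autophagy lists reach furthest left, and the paired receptor list furthest right.

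Among signalling genes, 13 of the 22 tested genes of the cyclic AMP machinery fell and 4 rose, with a median of -0.72. Cyclic AMP is made by adenylyl cyclases, broken down by phosphodiesterases and read by protein kinase A, and in macrophages it dampens inflammatory gene expression. Pde4b (ENSMUSG00000028525, chromosome 4, 102087543 to 102607259, plus strand), a cyclic AMP phosphodiesterase, rose from 2.92, 2.37 and 3.06 to 7.32, 7.66 and 7.45 log2 CPM, by 4.70 (SE 0.18, limma adjusted p = 1.55e-10), and none of the values overlap. The phosphodiesterases Pde3b (-3.24, SE 0.32), Pde4d (-2.52), Pde7a (-1.23) and Pde4a (-1.16) fell instead. The cyclases Adcy9 (-1.60) and Adcy7 (-1.06), both catalytic subunits of the kinase, Prkacb (-1.64) and Prkaca (-1.06), and the regulatory subunit Prkar2a (-1.58) fell as well, while the regulatory subunit Prkar2b rose (1.61).

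MAP kinase cascade kinases, which carry the receptor signal to AP-1 and to messenger RNA stability, split: 12 of 34 rose and 9 fell, with a median of -0.01 that became 0.07 when libraries were centred on ribosomal protein genes. Mapkapk2, the p38 target kinase that stabilises cytokine transcripts, rose by 2.48 (SE 0.11), Map3k8, the kinase upstream of ERK in this pathway, by 2.17, and Mapk11, p38 beta, by 1.82. Map3k14, the kinase of the non-canonical NF-kB pathway, fell by 2.00 (SE 0.23) and Map3k1 by 1.97. Of 20 protein tyrosine phosphatases 9 rose and 5 fell, with a median of 0.26. Ptprj, also called CD148, rose by 1.67 (SE 0.10) and Ptpn1, which acts on cytokine receptors, by 1.46, while Ptpro fell by 2.41 (SE 0.28) and Ptpn22 by 2.30.

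The Src, Syk and Tec kinases and their partners relay signals of Fc receptors, integrins and lectins. Of 21 tested 8 rose and 7 fell (median 0.04; -0.01 without LPS replicate 1), and all 8 rises were at least 2-fold. Besides Src, the Src family kinases Fgr (3.43) and Lyn (1.23) rose, as did Syk (2.29) and the adaptor Lcp2 (3.90, SLP-76). The Tec family kinases Tec (-2.49, SE 0.34) and Btk (-0.70) and the adaptor Lat2 (-2.35) fell. Phosphoinositide enzymes make and remove the lipids that recruit such kinases, and here 10 of 42 rose and 17 fell, with a median of -0.41. Pik3r6, a regulatory subunit of PI 3-kinase gamma, rose by 2.58 (SE 0.15) and its relative Pik3r5 by 1.58. Inpp5d (ENSMUSG00000026288, chromosome 1, 87620312 to 87720507, plus strand), the lipid phosphatase SHIP1 that restrains PI 3-kinase signals, fell from 6.73, 6.84 and 6.48 to 3.18, 3.75 and 3.64 log2 CPM, by 3.16 (SE 0.18), with no overlap. The diacylglycerol kinase Dgkz (-2.76) and phospholipase C beta 2, Plcb2 (-2.58), fell too.

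Receptor tyrosine kinases changed in opposite directions. Of 18 receptors and ligands 5 rose and 7 fell, with a median of -0.43. Met, the receptor of hepatocyte growth factor, rose by 5.84 (SE 0.36), while its ligand Hgf fell by 2.61. Flt1, a receptor of vascular endothelial growth factor, rose by 2.96. Pdgfrb, which also marks stromal cells, was at the lowest value of every untreated library and at 3.10, 3.07 and 1.96 log2 CPM with LPS. Mertk (ENSMUSG00000014361, chromosome 2, 128698956 to 128802894, plus strand), a receptor for the engulfment of dying cells, went from 7.16 ± 0.15 to 3.02 ± 0.49 log2 CPM (SD, n = 3) and fell by 4.14 (SE 0.24), with its ligands Gas6 (-1.23) and Pros1 (-0.74) lower as well. Csf1r, the receptor of macrophage colony-stimulating factor, fell by 1.21 and the insulin receptor, Insr, by 1.31.

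In the TGF-beta and BMP pathway, in which ligands bind paired type I and type II receptors that phosphorylate SMAD proteins, 9 of 27 rose and 7 fell (median -0.18), or 9 and 4 when libraries were centred on ribosomal protein genes. The activin subunit Inhba rose by 4.73 (SE 0.26) and the activin receptors Acvr1b and Acvr2a by 2.33 and 0.90. Tgfbr1, the type I receptor for TGF-beta, fell by 2.10 (SE 0.15) and the inhibitory Smad7 by 1.46, and Tgfb1 itself differed by 0.10 (SE 0.19, limma adjusted p = 0.706). Notch receptors are cut after ligand binding and join the DNA-binding protein RBPJ, and in this list 7 of 23 rose and 8 fell, or 7 and 7 with ribosomal protein centring, with a median of -0.03 that became 0.06. Notch1 (2.65), Notch2 (2.33), the ligand Jag1 (1.90), Rbpj (0.88) and the regulator Dtx2 (3.47, SE 0.21) rose. Lfng (ENSMUSG00000029570, chromosome 5, 140607320 to 140615545, plus strand), the glycosyltransferase that tunes which ligands Notch responds to, fell from 7.47, 7.90 and 7.99 to 5.05, 3.85 and 4.30 log2 CPM, by 3.38 (SE 0.27), and the protease Adam10 fell by 1.25.

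Of 23 Wnt pathway genes 5 rose and 10 fell, with a median of -0.40. The co-repressor Tle3 rose by 2.32 (SE 0.14), while Tle1 fell by 2.33. The transcription factor Tcf7l2 fell by 2.38 (SE 0.19) and Wls, needed to secrete Wnt proteins, by 1.33. The receptor Fzd1 was at the lowest value in the 3 untreated libraries and at 1.98, 1.66 and 1.69 log2 CPM with LPS.

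At the cell surface, 6 of 22 adhesion and orphan G protein-coupled receptors rose and 8 fell, with a median of -0.56. Gpr84 (ENSMUSG00000063234, chromosome 15, 103308235 to 103310612, minus strand), a receptor for medium-chain fatty acids, rose from 1.98, 1.95 and 1.82 to 6.60, 7.05 and 7.03 log2 CPM, by 4.97 (SE 0.16, limma adjusted p = 3.56e-11), and Gpr132 by 2.61. The oxysterol receptor Gpr183 fell by 4.55 (SE 0.55) and the proton sensor Gpr65 by 4.34 (SE 0.27). All 14 called members but Gpr89 moved by at least 2-fold.

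Ion channels split, with 13 of 36 higher and 16 lower (median -0.55). Mcoln2, an endolysosomal cation channel, rose by 3.62 (SE 0.23), the proton channel Hvcn1, which keeps the oxidative burst going, by 2.41, and Orai2, a pore of store-operated calcium entry, by 3.01. Orai3 (-1.21) and the calcium sensor Stim1 (-1.08) fell. The endolysosomal 2-pore channels Tpcn1 (-3.50) and Tpcn2 (-2.61) fell, and so did the potassium channel Kcnk13 (-4.37, SE 0.45; -4.99 without LPS replicate 2). Lrrc8b, Lrrc8c and Lrrc8d, subunits of the volume-regulated anion channel that lie side by side on chromosome 5, rose by 1.72, 2.09 and 1.71.

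Paired immune receptors come as activating and inhibitory members of the same family, and 15 of 33 rose and 10 fell (median 0.40). Trem1, an amplifier of inflammatory signals, rose by 5.38, the inhibitory ligand Cd200 by 4.51, and Slamf1, which binds bacterial porins, lay at the lowest value in every untreated library and at 4.23, 3.98 and 3.94 log2 CPM with LPS. Trem2, a lipid receptor, fell by 1.80, the CD200 receptor Cd200r1 by 1.58 and the collagen receptor Lair1 by 2.83. All 4 called members of the CD300 family fell, from -0.91 (Cd300ld) to -5.71 (Cd300lb). Pilra and Pilrb1 rose by 6.40 and 4.22; counts of the Pilr, Pira and Lilr genes may be shared among near-identical copies.

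Siglecs are receptors for sialic acid, the sugar that caps many surface glycans. Of 19 Siglecs and sialic acid enzymes 5 rose and 9 fell, with a median of -0.75. The receptors Siglece (4.12, SE 0.59; 4.72 without untreated replicate 2, and 2 untreated libraries at the lowest value) and Cd33 (2.29) rose, as did the sialyltransferases St3gal3 (3.10, SE 0.21), St3gal1 (2.68) and St3gal4 (1.36). Cmas, which activates sialic acid for transfer, fell by 1.72 (SE 0.13), its Golgi carrier Slc35a1 by 1.19 and the sialidase Neu1 by 1.10. Among 16 semaphorins, plexins and ephrins, guidance cues and receptors best known from axons, 7 rose and 5 fell (median -0.20). The ephrin Efna2 rose by 4.65 (SE 0.27) and Sema4a by 2.44. Nrp1 (ENSMUSG00000025810, chromosome 8, 128358604 to 128503363, plus strand), neuropilin 1, fell from 7.85, 8.02 and 7.97 to 5.10, 4.97 and 4.75 log2 CPM, by 3.01 (SE 0.13), while its relative Nrp2 rose by 1.64, and in neither did the groups overlap. Tetraspanins organise membrane domains, and 2 of 15 rose and 6 fell (3 without LPS replicate 1), with Cd82 at 1.43 (SE 0.17) and Tspan4 at -1.25 (SE 0.21) and a median of -0.62.

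**Figure D5:**
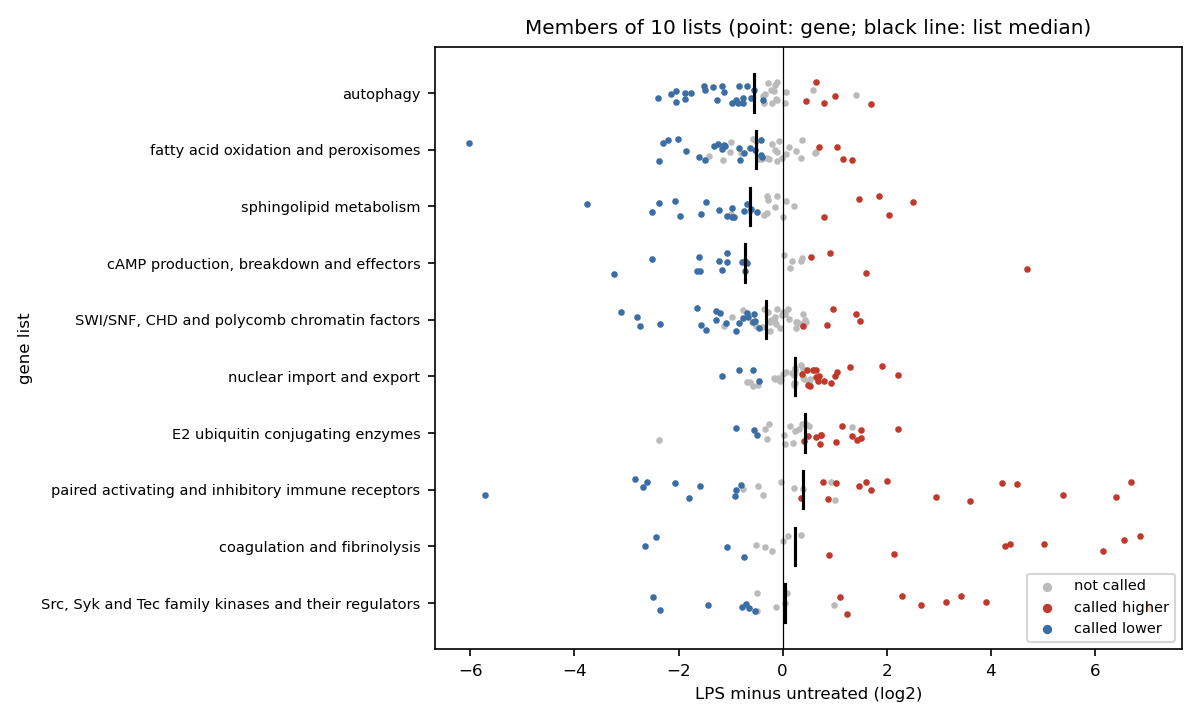
Difference between LPS and untreated libraries (x axis, log2) for each tested member of 10 gene lists (y axis), a point per gene coloured by call, with the list median as a black line. Autophagy, fatty acid oxidation, sphingolipid and cyclic AMP medians lie left of -0.50, while the paired receptor and coagulation lists spread from below -2 to above 6; Slamf1 and Serpinb2, the fitted values near 6.6, rest on untreated libraries at their lowest value.

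Of the secreted systems, coagulation and fibrinolysis held the largest rises. Coagulation factors form fibrin, and plasminogen activators lead to its removal. Of 18 tested genes 8 rose and 4 fell, with a median of 0.24 but 7 rises of at least 2-fold. F10, coagulation factor X, lay at -0.79, -0.79 and -2.33 log2 CPM untreated, the last at the lowest value of its library, and at 4.93, 4.83 and 4.81 with LPS, a rise of 6.16 (SE 0.37). Plat, tissue plasminogen activator, rose by 6.86 (SE 0.39) with 2 of 3 untreated libraries at the lowest value. Serpinb2, an inhibitor of plasminogen activators, was at the lowest value in every untreated library and at 3.71, 3.85 and 4.19 log2 CPM with LPS. Plaur, the receptor of urokinase, rose by 4.28, while urokinase itself, Plau, fell by 2.43 (SE 0.55). Procr, the receptor of protein C, rose by 4.36, whereas thrombomodulin, Thbd, which activates protein C, fell by 2.64 (SE 0.66). Thbs1, thrombospondin 1, fell by 1.06 (SE 0.24). Megakaryocyte marker values are given above and their part in this list was not tested.

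Of 9 complement genes 4 rose and 3 fell (median -0.11). The central component C3 rose by 2.56 (SE 0.13) and factor B, Cfb, by 3.22, while the receptor C3ar1 and the regulator Cd59a fell. Of 11 serpins and cystatins, inhibitors of proteases, 3 rose and 5 fell, with a median of -0.04 that turned to 0.05 with ribosomal protein centring and to 0.23 without LPS replicate 1. Serpinb6a fell by 1.67 (SE 0.14) and its neighbour Serpinb9, an inhibitor of granzyme B, by 2.96 (SE 0.78; by 3.82 without LPS replicate 1 and by 1.85 without LPS replicate 3). Of 13 annexins and galectins 3 rose and 3 fell, near the shares of all tested genes, or 2 and 3 with ribosomal protein centring. Their differences lay between those of Lgals9 at 1.37 (SE 0.18) and Lgals3 at -0.95 (SE 0.11).

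The enzymes and core proteins of proteoglycans and glycans changed by large amounts in both directions. Of 37 tested 13 rose and 14 fell, or 14 and 12 with ribosomal protein centring and 14 and 14 without LPS replicate 1, and the median was -0.27. Vcan (ENSMUSG00000021614, chromosome 13, 89655312 to 89742509, minus strand), the matrix proteoglycan versican, rose from 1.26, 0.45 and 0.85 to 6.51, 6.82 and 6.70 log2 CPM, by 5.83 (SE 0.19). Sdc4 (ENSMUSG00000017009, chromosome 2, 164424247 to 164443887, minus strand), the membrane proteoglycan syndecan 4, rose from 6.84, 7.11 and 7.33 to 11.38, 11.38 and 11.33 log2 CPM, by 4.27 (SE 0.12), and Srgn, the granule proteoglycan serglycin, by 3.62. In each the groups are far apart. Ext1, which extends heparan sulfate, rose by 2.90, whereas Xylt1, which attaches the first sugar of such chains, fell by 3.20. Gcnt2 rose by 3.21 while its relative Gcnt1 was among the largest falls.

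Among ETS transcription factors, several of which set myeloid gene expression, 5 of 17 rose and 7 fell, but 5 rose and 4 fell with ribosomal protein centring. Ets2 (ENSMUSG00000022895, chromosome 16, 95702075 to 95721051, plus strand) rose from 5.49, 6.04 and 6.11 to 9.32, 9.04 and 9.06 log2 CPM, by 3.26 (SE 0.15), Spic, which directs iron recycling in macrophages, by 2.60 and Spi1, which encodes PU.1, by 0.73. Fli1 fell by 2.18 (SE 0.21). Clock genes form a loop of activators and repressors, and 7 of 17 rose and 6 fell (median 0.06). Nfil3 rose by 3.33 (SE 0.22) and Tef, which binds the same D-box as an activator, fell by 2.62 (SE 0.21). The repressors Cry1 (1.73) and Cry2 (1.29) rose, Bhlhe40 rose (1.70) and its relative Bhlhe41 fell (-2.06).

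Nuclear receptors are transcription factors switched by lipids and hormones. Of 18 tested outside LXR 5 rose and 6 fell, with a median of -0.43. Nr4a3, an orphan receptor induced within hours of many stimuli, rose by 4.78 (SE 0.65; 3.83 without untreated replicate 2 and 5.54 without untreated replicate 3). The glucocorticoid receptor, Nr3c1, rose by 1.26 and Ppard by 1.73. Pparg (ENSMUSG00000000440, chromosome 6, 115360951 to 115490399, plus strand), a receptor of fatty acids that directs lipid handling, went from 5.16, 5.39 and 6.01 to 1.98, 2.30 and 1.96 log2 CPM and fell by 3.44 (SE 0.29), and its partner Rxra fell by 2.87. Of 54 chromatin remodellers of the SWI/SNF and CHD families and polycomb proteins 5 rose and 20 fell, 11 of them by at least 2-fold (median -0.33). The polycomb reader Cbx6 fell by 3.11 (SE 0.36), the SWI/SNF ATPase Smarca2 by 2.74 and Arid1b by 1.28, while the polycomb subunits Pcgf3 (1.40, SE 0.15), Pcgf5 (1.48) and Bmi1 (0.97) rose.

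Among the 36 lists, the surplus of rises over falls as a share of tested members was largest for the E2 ubiquitin-conjugating enzymes, followed by the nuclear transport factors. Of 30 E2 enzymes, which hand ubiquitin to its targets, 13 rose and 3 fell, with a median of 0.43. Ube2e2 rose by 2.22 (SE 0.30), Ube2f, the E2 for NEDD8, by 1.42 and Ube2z by 1.33. Ube2e3 fell by 0.90 (SE 0.18). Of 47 importins, exportins and nuclear pore genes 16 rose and 4 fell (median 0.24). Kpna3, importin alpha 4, which carries NF-kB, rose from 6.27, 6.22 and 6.03 to 8.03, 8.12 and 8.08 log2 CPM, by 1.90 (SE 0.10), and Nup54 (1.30), Nup62 (1.05) and Nup98 (1.01) rose. The exportins Xpo7 (-1.16, SE 0.17) and Xpo1 (-0.84) fell.

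Among deadenylation and decapping genes, which shorten and destroy messenger RNA, 7 of 37 rose and 10 fell, but 8 rose and 4 fell with ribosomal protein centring. Btg2, a partner of the deadenylase, rose by 1.67 (SE 0.19), Btg3 by 3.21 and the decapping factors Dcp1a and Dcp2 by 1.78 and 1.09, while Cnot6l, a deadenylase, fell by 1.16 (SE 0.15) and Parn by 1.34. Of 37 aminoacyl-tRNA synthetases and their scaffold 12 rose and 11 fell (median 0.03; -0.04 without LPS replicate 1). Eef1e1, part of the scaffold, rose by 1.98 (SE 0.28) and the cytosolic enzymes Aars and Yars by 1.46 and 1.21. The mitochondrial enzymes Hars2 (-0.97, SE 0.21), Iars2 (-0.78) and Tars2 (-0.87) fell, as did the cytosolic Qars (-0.64).

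Of 31 host genes of small nucleolar RNAs and microRNAs 4 rose and 6 fell, or 4 and 4 with ribosomal protein centring (median -0.12; 0.20 without LPS replicate 1). Mir155hg (ENSMUSG00000097418, chromosome 16, 84703167 to 84715245, plus strand) lay at -0.51, -0.30 and 0.02 log2 CPM untreated and at 7.39, 7.06 and 6.96 with LPS and rose by 7.40 (SE 0.19, limma adjusted p = 5.42e-12). It is the precursor of miR-155, a microRNA of activated macrophages, and Mir22hg, precursor of miR-22, rose by 1.03 (SE 0.10). The libraries measured the polyadenylated host transcripts and not the mature microRNAs. The guide strands of both are shown from RefSeq because they are the products of the host transcripts that rose, with the seed (bases 2 to 8) in capitals; their seeds differ.
mmu-miR-155-5p, chr16:84714143-84714165, plus strand: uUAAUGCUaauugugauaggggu
mmu-miR-22-3p, chr11:75463772-75463793, plus strand: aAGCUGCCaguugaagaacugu
Among long non-coding RNAs as a whole, 66 of 356 rose (18.5%) and 75 fell (21.1%), somewhat below the 21.5% and 25.4% of all tested genes. Ptgs2os2, transcribed from the strand opposite Ptgs2, rose by 6.42 (SE 0.51; 5.60 without untreated replicate 1 and 7.04 without untreated replicate 3) and AW112010 by 5.18 (SE 0.27). The nuclear paraspeckle RNA Neat1 (ENSMUSG00000092274, chromosome 19, 5824708 to 5845478, minus strand) fell from 9.63, 9.46 and 9.30 to 7.49, 7.47 and 7.68 log2 CPM, by 1.92 (SE 0.12), and AU020206 by 4.28 (SE 0.23). The other large falls among non-coding genes were in Gm24146 (-3.58) and Gm23624 (-2.94), both annotated as miscellaneous RNA.

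Arhgap25 (ENSMUSG00000030047, chromosome 6, 87458545 to 87533259, minus strand), a protein that switches the GTPase Rac off, fell from 6.06, 6.15 and 5.96 to 1.48, 1.81 and 1.96 log2 CPM, by 4.31 (SE 0.29). Of 52 myosins, kinesins and dynein subunits 8 rose and 20 fell (median -0.30). Myo10, the motor of filopodia, rose by 1.87 (SE 0.11), while Myo1f (-2.68, SE 0.18), Myo18a (-1.98) and Myo5a (-1.86) fell.

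Of 47 SNAREs and exocytosis genes, which fuse vesicles with membranes, 5 rose and 15 fell (median -0.22). Stx11, a SNARE of secretory lysosomes, rose by 2.97 (SE 0.32) and Stx6, which serves cytokine export, by 1.92. Syt11 fell by 1.82 (SE 0.27) and Stx17, the SNARE that fuses autophagosomes with lysosomes, by 1.75. Of 43 autophagy genes 5 rose and 23 fell, 13 of them at least 2-fold, with a median of -0.56. Autophagy encloses cell contents in a double membrane and delivers them to lysosomes. The receptors Optn (1.69, SE 0.15), Sqstm1 (1.00) and Tax1bp1 (0.80), which tie ubiquitinated cargo to the membrane, rose, while the receptors Nbr1 (-2.05) and Calcoco1 (-2.39, SE 0.40) fell. The initiating kinase Ulk2 (-1.77), the lipid kinase partner Uvrag (-2.15), the conjugation enzyme Atg7 (-1.52), the membrane marker Map1lc3b (-1.34) and Tfeb, the transcription factor of lysosomal genes (-1.88), fell.

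In sphingolipid metabolism 5 of 32 rose and 16 fell, with a median of -0.62. Cers6, a ceramide synthase, rose 5.68-fold (SE of the log2 value 0.15). Ugcg, which turns ceramide into glucosylceramide, rose by 2.05 on the log2 scale and Sgms1, which turns it into sphingomyelin, by 1.47. Cerk (ENSMUSG00000035891, chromosome 15, 86139128 to 86186141, minus strand), which phosphorylates ceramide, fell from 6.91, 6.77 and 6.47 to 2.68, 3.22 and 2.95 log2 CPM, by 3.76 (SE 0.20). The lysosomal hydrolases Gla (-2.07), Galc (-1.97) and Asah1 (-1.06) fell too. Of 49 genes of fatty acid oxidation and peroxisomes 4 rose and 21 fell, with a median of -0.52. Eci2, an isomerase of unsaturated fatty acid oxidation, rose by 1.16 (SE 0.23). Cpt1a, which lets long fatty acids into mitochondria, fell from 7.07, 7.32 and 7.43 to 5.72, 5.12 and 4.93 log2 CPM, by 2.02 (SE 0.19). The peroxisomal genes Acox3 (-2.37) and Crot (-2.20) and the mitochondrial Acadm (-1.31) and Hadh (-1.61) fell as well.

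Of 29 genes of polyamine, NAD and tryptophan metabolism 6 rose and 9 fell (median -0.17). Nampt, which salvages nicotinamide into NAD, rose by 1.60 (SE 0.17), and Cd38, which consumes NAD, was at the lowest value in every untreated library and at 2.20, 3.46 and 3.64 log2 CPM with LPS. Odc1, which starts polyamine synthesis, rose by 0.86 and Paox, which degrades polyamines, fell by 2.70 (SE 0.31). Amino acid, folate and one-carbon genes split into 14 higher and 18 lower of 56, or 13 and 12 with ribosomal protein centring (median -0.12). Upp1, uridine phosphorylase, rose by 4.42, the arginine enzymes Arg2 and Ass1 by 3.92 and 3.36, and Asns, which makes asparagine, by 2.30. The mitochondrial folate genes Mthfd2 and Mthfd2l rose by 2.43 and 1.94. Glul, glutamine synthetase, fell by 2.03 (SE 0.16).

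Genes that changed in the same direction also lay side by side. In 43 places at least 4 tested genes next to each other were all called in 1 direction with changes of at least 2-fold. Of all tested genes 12.8% rose and 14.3% fell by that much, and whether 43 runs exceed what these shares give was not tested. Several hold families of related genes: Slfn2, Slfn1, Slfn4 and Slfn3 (chromosome 11, 83065112 to 83215154) rose by 1.35 to 4.78, the Phf11 genes with Setdb2 (chromosome 14, 59276913 to 59440884) by 1.27 to 3.24, and Trim30b, Trim30c, Trim30a and Trim30d (chromosome 7, 104355382 to 104507849) by 1.39 to 5.04. Family members can share reads, and Slfn4 is at 2.76 without untreated replicate 3 against 3.63 with all libraries. Other runs, such as those of Maml3 and Fli1, join a gene with predicted genes that lie inside it and are not independent neighbours. Further runs hold genes that are mostly of different families. Irs2, Col4a1, Col4a2 and Rab20, which encode an insulin receptor substrate, a pair of basement membrane collagens and a phagosome GTPase, rose with the predicted gene Gm20100 (chromosome 8, 10984681 to 11478710), by 1.30 to 3.37. Gm20100 lies inside Rab20 on the same strand and is not an independent neighbour. Its call was lost without any single LPS library and without untreated replicate 1 or 2. Fmnl1, Map3k14, Arhgap27 and Plekhm1 (chromosome 11, 103171107 to 103412687) fell by 1.19 to 3.26 on the log2 scale. So did Rcbtb2, Rb1, Lpar6 and Itm2b (chromosome 14, 73123037 to 73385289), by 1.14 to 5.74, where Lpar6 lies within an intron of the retinoblastoma gene Rb1. A further run of falls holds Galc, Gpr65, Spata7 and Ptpn21 (chromosome 12, 98202294 to 98737405), in which the call of Spata7 was lost without untreated replicate 2 or 3, and that of Ptpn21 without any untreated replicate or LPS replicate 1 or 3, with values between -2.61 and -1.40 over these omissions and that of LPS replicate 2. In Chst12, Lfng, Ttyh3 and Iqce (chromosome 5, 140505550 to 140702378) the call of Chst12 was lost in 9 of 18 alternative settings, among them the omission of LPS replicate 1, 2 or 3 or of untreated replicate 1 or 3. Overlapping neighbours may share reads, since the strand setting of the counting is not given in the sources used here.

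By absolute amount, some genes were left out as cytokines, interferon-stimulated genes or well known markers, a set that need not hold every interferon-stimulated gene. The largest gains in linear CPM outside that set were in Actb, Plek, Cybb, Sdc4 and Slfn2. Plek (ENSMUSG00000020120, chromosome 11, 16971206 to 17052381, minus strand), pleckstrin, a substrate of protein kinase C in blood cells, rose from 8.21, 7.95 and 7.81 to 11.51, 11.51 and 11.67 log2 CPM, by 3.57 (SE 0.12). Cybb, the catalytic subunit of the phagocyte NADPH oxidase, rose by 1.59 (SE 0.13). The largest losses were in Malat1, Ctsd, Gpnmb, Lyz2 and Lpl. Ctsd (ENSMUSG00000007891, chromosome 7, 142375911 to 142388038, minus strand), the lysosomal protease cathepsin D, fell from 12.66, 12.66 and 12.84 to 11.89, 11.56 and 11.56 log2 CPM, by 1.05 (SE 0.11). Lpl (ENSMUSG00000015568, chromosome 8, 68880491 to 68907448, plus strand), lipoprotein lipase, fell from 11.67, 11.67 and 11.56 to 9.30, 9.73 and 9.62 log2 CPM, by 2.08 (SE 0.11), and the lysosomal glycoprotein gene Gpnmb by 1.20 (SE 0.11). Lyz2, lysozyme, fell by 0.99 (SE 0.13). Because quantile normalisation hands every library the same set of values, the most abundant genes show only their rank: Malat1 took 13.48 in all 3 untreated libraries and Actb 13.14. The calls of both, 0.48 for Actb and -0.54 for the nuclear RNA Malat1, were lost when libraries were centred on ribosomal protein genes.

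At the other end of the scale, 22 called genes had no untreated library above its lowest value, and 22 had no LPS library above it. Among the first were Car2, a carbonic anhydrase, at 1.75, 1.66 and 1.52 log2 CPM with LPS, the pentraxin Ptx3 at 1.48, 3.32 and 2.76, the pantetheinase Vnn3 at 1.75, 2.39 and 2.46 and the procollagen protease Bmp1 at 1.75, 1.09 and 1.52. Among the second were the cannabinoid receptor Cnr2, at 2.58, 2.37 and 2.18 log2 CPM untreated, the beta-1 adrenergic receptor Adrb1 at 1.82, 1.22 and 1.06, the transcription factor Zbtb16 at 2.31, 3.10 and 2.68 and the DNA repair gene Brca1 at 1.39, 2.05 and 2.54. These genes, named after their values were seen, rest on few reads, and no fold is given. Pseudogenes were scarce among the falls: of 1388 tested, 205 were at least 2-fold higher and 23 at least 2-fold lower. Of all tested genes 12.8% and 14.3% were, so the share that rose was near that of all genes. Reads of pseudogenes may come from parent genes of near-identical sequence.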

How the data were processed

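The authors deposited 1 table for 9 libraries of 3′ messenger RNA ends (QuantSeq forward kit, 100 ng RNA and 16 PCR cycles, per the labels' protocols, which mention no molecular identifiers). Its values are a score made by the authors: log2 CPM, quantile-normalised across libraries, as read from the values, since counts were not used here. Per the submitters' processing notes the build was GRCm38 (mm10) and the tools included featureCounts 1.5.1 and STAR 2.5.2b beside edgeR, limma and MultiQC, with no roles named; annotation, strand and filter were not given in the sources used here. Symbols and coordinates for 12185 genes are from GENCODE M21, and 19 had none. Quantile normalisation hides a change that moves most transcripts alike.

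One linear model with a mean per group was fitted to all 9 libraries and 12196 genes with limma 3.58.1 (R 4.3.3; trend, two-sided, Benjamini-Hochberg over all tested genes). Genes with an adjusted p under 0.05 were called; fold changes are differences of log2 CPM, and SE is the model's. Reads per library were estimated from value steps and cover counting error only, since PCR copies are not independent molecules. The fit was also run on simulated counts with far fewer changed genes than were called here. That run does not show how quantile normalisation behaves under a change this broad.

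The members, gene lists and naming rule were chosen with earlier results of these data known. Named were, among calls without overlap between groups and with a group mean at or above the median gene, the largest rise and fall of each list, the 12 largest rises and falls outside cytokines, interferon-stimulated genes and well known markers, the 3 largest each among non-coding RNAs, the 5 largest gains and losses in CPM, and runs of at least 4 neighbours called at 2-fold or more; others were named after their values were seen, and some genes and 1 list are not reported here. Alternatives were a replicate term, other filters, centring or weights, no trend, repeated quantile normalisation, only the 6 libraries, a minimum change of 2-fold and omission of each library in turn.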

Additional observations from a re-analysis of the deposited data

How the results depend on the processing

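Across 18 alternative settings the number of genes called higher lay between 2080 (a filter at 10 CPM) and 3283 (library weights), against 2628, and the number lower between 2370 (centring on ribosomal protein genes) and 3839 (library weights), against 3102. Leaving out each of the 9 libraries in turn gave 2271 to 2762 higher and 2564 to 3278 lower. With at least a 2-fold change required, 1560 were higher and 1749 lower. With the replicate number as a block, 2530 were higher and 3001 lower. Deviations from the group means correlated at -0.297, 0.01 and -0.152 in same-numbered libraries and at -0.215 to 0.294 in the others. With 3 libraries per group these values cannot decide whether the numbers pair the samples. With centring on 75 ribosomal protein genes, the median over genes was 0.03 in place of -0.06, and 52.4% of calls were higher in place of 45.9%. Without LPS replicate 1, 2762 were higher, 2389 of them shared with the reported calls, and 3278 lower, 2891 of them shared. Of the 293 genes named by rule, 16 lost their call in at least 1 setting, and of 575 other called list members 139 did; none of either changed direction. Genes of low level are limited by depth, since in LPS replicate 1 348 genes were at the lowest value.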

Other observations

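GENCODE marks some predicted genes, without a known product, as awaiting experimental evidence (TEC), and 366 of these were tested, of which 100 rose and 42 fell. Where such a gene lay inside a tested protein-coding gene on the same strand, its call is set beside that of the gene around it, a comparison chosen after the values were seen and given as a description. Inside genes that rose, 68 of 87 such predicted genes rose and none fell. Inside genes that fell, 35 of 102 fell and 5 rose. Inside genes that were not called, 11 of 101 rose and none fell. Inside Cers6 (chromosome 2), which rose, 6 such predicted genes rose, by 2.82 to 3.10 on the log2 scale. Whether these reads belong to separate transcripts or to the surrounding genes was not tested.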
